A study of Homo sapiens with 2 samples.

Results

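Replacement and variant histones were compared between control and FZR1 ko breast cancer cells, both treated with cisplatin. The 9 genes were chosen by name as histone genes whose mRNA is polyadenylated or made outside DNA replication, and each was found in the table by its Entrez gene ID under its current symbol. They are H2AX, H2AZ1, H2AZ2, H2AJ and MACROH2A1 of the H2A type, H3-3A, H3-3B and CENPA of the H3 type, and the linker histone H1-10. All 9 had a value in both libraries, out of 23033 genes with a value.

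By their labels both libraries are of T-47D, a breast cancer line of the luminal type, and come from cells given 2 µg/ml of cisplatin (DDP), a drug that crosslinks DNA. The control library is labelled WT and the other FZR1 ko, and there was 1 library of each, so no difference below has a replicate check and no test was possible. The FZR1 protein, also known as CDH1 (not the E-cadherin gene of that symbol), picks substrates for the anaphase promoting complex, which marks cell cycle proteins such as cyclins for breakdown. The FZR1 ko line was made by CRISPR/Cas9 with guides delivered by lentivirus, and the study describes it as derived from a single cell, so the knockout and the history of 1 clone cannot be told apart. No time of treatment is given for the sequenced cells, and the data hold no library of cells without cisplatin, so its own effect cannot be seen. Values are FPKM, sequenced fragments relative to the length of a transcript and to all mapped fragments of the library, so the number of reads behind each is unknown. FZR1 itself had 12.3 FPKM in control against 10.1 FPKM in FZR1 ko, which does not check the label, since an edit by Cas9 need not remove the mRNA. Of 9 luminal marker genes only FOXA1, KRT8 and KRT18 reached 1 FPKM, the estrogen receptor ESR1 stood at 0.04 and 0.13 FPKM, and the progesterone receptor PGR was at 0.01 FPKM or 0. The 9 summed to 1388 FPKM in control, mostly KRT8 and KRT18, against 1744 FPKM in FZR1 ko. Of 7 basal or mesenchymal markers VIM, SNAI2, ZEB1 and CDH2 reached 1 FPKM, and the 7 summed to 328 FPKM in control, mostly VIM, against 319 FPKM in FZR1 ko. GATA3, a transcription factor of luminal cells, had 0.31 and 0.15 FPKM, and CDH1, which encodes E-cadherin, 0.69 and 0.62 FPKM. Defining luminal genes were thus nearly absent from both libraries, which leaves the cell line label in doubt. CDH2, from 2.97 to 15.3 FPKM, was the marker that differed most, and its part in the results was not tested.

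Most histone mRNA is made in S phase from clustered genes without introns, and it ends in a stem-loop instead of a poly(A) tail. Replacement variants are made throughout the cell cycle and enter nucleosomes without DNA synthesis. H2A.Z marks promoters and enhancers, H3.3 fills active and repeated chromatin, macroH2A carries a large extra domain and is linked to silent chromatin, and CENP-A marks the centromere. H2A.X is phosphorylated around DNA breaks, where it is known as γH2AX, a common readout of damage by drugs such as cisplatin.

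The sequences of a few of these genes show which mRNA can be read as their own. The start of the H3-3A coding sequence is shown with the same stretch of H3-3B and of H3P6, a processed copy of H3-3A on chromosome 2, because the last bears on every H3.3 value below. Each line gives bases 1 to 60 of the coding sequence on hg38, with bases that differ from H3-3A in capitals.
H3-3A, chr1:226064352-226064411, plus strand: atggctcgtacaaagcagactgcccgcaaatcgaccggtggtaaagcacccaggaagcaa
H3-3B, chr17:75779115-75779174, minus strand: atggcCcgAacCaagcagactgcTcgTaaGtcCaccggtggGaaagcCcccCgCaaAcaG
H3P6, chr2:174719908-174719967, plus strand: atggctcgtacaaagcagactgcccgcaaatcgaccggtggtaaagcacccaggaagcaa

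H3-3B differed from H3-3A at 13 of these bases, and at 88 of all 411 coding bases, although both genes encode the H3.3 protein. H3P6 differed at 0 of the 60. Over a stretch of 1041 bases the H3-3A transcript and the H3P6 locus matched with 0 mismatches and 1 gap base. Of all 50-base stretches of the H3-3A transcript, 93.9% also occur in another gene with a value in the table, and H3P6 is that gene. Reads of H3-3A and H3P6 therefore cannot be told apart over nearly the whole transcript, and their separate FPKM are uncertain. H3-3B shared 8.28% of its 50-base stretches with H3-5, a retrogene copy at 0.68 FPKM in control and listed at 0 in the other library. In the other 7 genes at most 1.48% occurred in a gene with a value. H2AZ1 and H2AZ2 also shared 7.34% and 5.51% with the pseudogenes H2AZP3 and H2AZ2P1, which have no value here.

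One further sequence sets H2AX apart. The stem-loop of replication-dependent histone mRNA was searched, by its conserved bases, in every transcript of the 9 genes in GENCODE 44, and was found in H2AX alone, 50 bases past the stop codon. It is printed with 4 bases on each side, the 16 bases of the stem-loop in capitals, at chr11:119094898-119094913 on the minus strand of hg38.
H2AX stem-loop: caaaGGCCCTTTTAAGGGCCacca
The main transcript of H2AX runs on for 1024 bases after it. H2AX mRNA is known to occur both as a short form ending at the stem-loop and as a longer polyadenylated form. The same stem-loop was present in 66 of 69 replication-dependent histone genes (95.7%) and in 0.487% of the 13145 genes kept for which a main transcript was found.

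Of the 9 variant histones, 8 had a lower FPKM in FZR1 ko than in control and 1, MACROH2A1, had a higher one. Among all 13554 genes kept, which reached 1 FPKM in either library, 50.3% were lower in FZR1 ko. Each log2 ratio below is that of FPKM + 1 in FZR1 ko to FPKM + 1 in control, so a negative value means less in FZR1 ko. None of the 9 reached a 2-fold difference on this scale, while 6.72% of all genes kept were at least 2-fold lower and 6.78% at least 2-fold higher. At 1.5-fold, H3-3A, H2AJ, H2AZ1 and H1-10 were lower, against a background of 17.6% of all genes kept, and MACROH2A1 was higher, against a background of 18%. Among the 6654 genes with a mean of at least 10 FPKM, chosen after the data were seen and holding all of the 9 but H2AJ, these backgrounds were 17.1% and 12.9%. The median log2 ratio of the 9 genes was -0.53 and that of all genes kept was -0.0048. The 9 genes summed to 1584 FPKM in control against 1138 FPKM in FZR1 ko. In bulk RNA, fewer cells making a transcript and less of it per cell cannot be told apart.

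**Figure D1:**
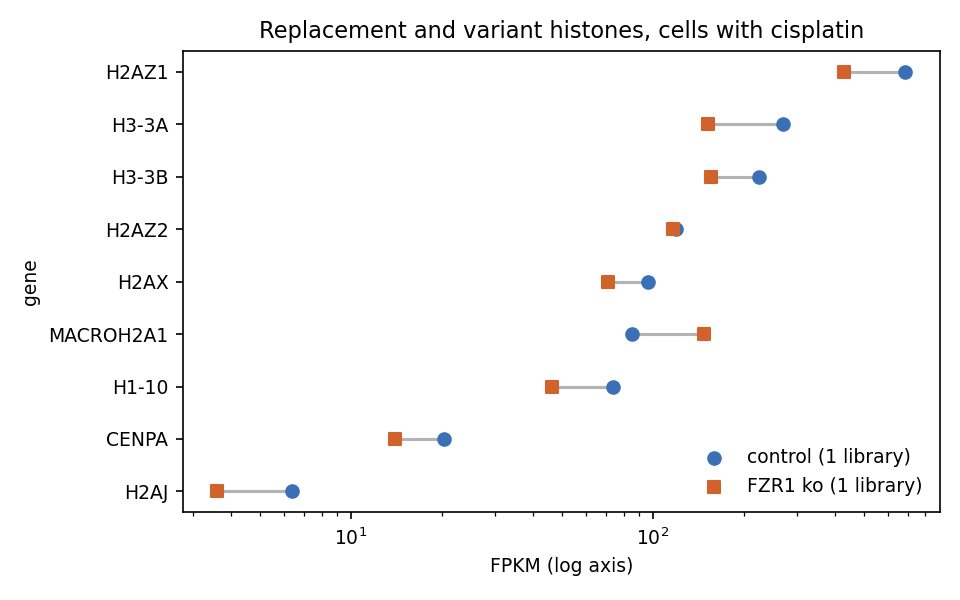
FPKM (log axis) of the 9 replacement and variant histone genes in the control library (circles) and the FZR1 ko library (squares), 1 library each and no error bars. All squares lie left of the circles except that of MACROH2A1, which moved from 85.4 to 147.9 FPKM, and the 2 marks of H2AZ2 nearly coincide.

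H2AZ1 (Entrez gene 3015, chr4:99948088-99950275 in RefSeq on GRCh38.p14, as for all positions of genes below) encodes H2A.Z.1, the main H2A.Z protein of dividing cells, and had the highest FPKM of the 9 genes in both libraries as deposited, though not above H3-3A if the FPKM of the matching locus H3P6 is added to it. It had 686 FPKM in control against 430 FPKM in FZR1 ko, which is 62.7% of control and a log2 ratio of -0.67. H2AZ2 (94239, chr7:44826889-44848126), which encodes the close relative H2A.Z.2, had 119 FPKM in control against 117 FPKM in FZR1 ko, with a log2 ratio of -0.03. The coding sequences of both genes were 80.4% identical, and their transcripts shared none of their 50-base stretches. H2AZ1 stood at 5.77 times the FPKM of H2AZ2 in control and at 3.69 times in FZR1 ko. This ratio is taken within a library and does not depend on how the libraries were scaled. It still carries any trend with transcript length, and the main transcripts have 866 bases (H2AZ1) and 3026 bases (H2AZ2). The sum of both was 805 FPKM in control against 547 FPKM in FZR1 ko.

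H2AX (3014, chr11:119093874-119095465) had 96.4 FPKM in control against 71.1 FPKM in FZR1 ko, 73.7% of control, with a log2 ratio of -0.44. It lay at percentile 24.2 of the log2 ratios of all genes kept. In RefSeq the span of DPAGT1, on the same strand, covers all 1592 bases of H2AX, so some reads may belong to it, and DPAGT1 had 24.7 FPKM in control against 28.3 FPKM in FZR1 ko. The mRNA level says nothing of the phosphorylation of the protein. H2AJ (55766, chr12:14774405-14778002), a little studied H2A variant linked to senescent cells, was the lowest of the 9 genes. It had 6.36 FPKM in control against 3.61 FPKM in FZR1 ko, with a log2 ratio of -0.67. For so low a gene this value depends on the FPKM added, since it was -0.82 with none and -0.40, no longer past 1.5-fold, with 5 FPKM.

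MACROH2A1 (9555, chr5:135334381-135399887) encodes macroH2A1, the largest of the H2A variants. It had 85.4 FPKM in control against 147.9 FPKM in FZR1 ko, 1.73 times the control value, with a log2 ratio of 0.79 at percentile 88.6 of all genes kept. In control its level lay below those of H2AZ2 and H2AX, and in FZR1 ko above both. Within a library its FPKM was 0.89 times that of H2AX in control and 2.08 times in FZR1 ko. The gene makes splice forms with different macro domains, which the table does not separate. In RefSeq PITX1-AS1 overlaps it by 10300 bases, at 1.84 FPKM in control against 2.01 FPKM in FZR1 ko. Its paralog MACROH2A2 was nearly silent, with 0.25 FPKM in control against 0.35 FPKM in FZR1 ko.

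H3-3A (3020, chr1:226061831-226072019) and H3-3B (3021, chr17:75776434-75779779) both encode H3.3 and had levels of like size. H3-3A had 270.5 FPKM in control against 152 FPKM in FZR1 ko, and its log2 ratio of -0.83 was the lowest of the 9 as deposited, at percentile 9.80 of all genes kept. H3-3B had 225 FPKM in control against 156 FPKM in FZR1 ko, with a log2 ratio of -0.53. H3-3A was the higher of the pair in control, at 1.20 times H3-3B, and slightly the lower in FZR1 ko, at 0.97 times. The identical locus H3P6 (440926) was given 587 FPKM in control against 416 FPKM in FZR1 ko, more than H3-3A in both libraries. Added together, H3-3A and H3P6 had 857 FPKM in control against 568 FPKM in FZR1 ko, with a log2 ratio of -0.59, which is close to that of H3-3B and no longer the lowest, since H2AJ, H2AZ1 and H1-10 were lower. H3-3A held 31.6% of that sum in control and 26.8% in FZR1 ko. With the sum in place of H3-3A, the ratio to H3-3B was 3.80 in control and 3.64 in FZR1 ko, so the change of order between H3-3A and H3-3B is not seen there. The transcript length the authors used for H3P6 is not given in the sources used here, so the sum of FPKM is approximate.

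CENPA (1058, chr2:26786056-26794589), the histone H3 of the centromere, had 20.3 FPKM in control against 13.99 FPKM in FZR1 ko, with a log2 ratio of -0.51. Unlike most replacement variants its mRNA is highest in G2 and mitosis. A list of 24 other G2 and mitosis genes had a median log2 ratio of -0.08, with 2 genes at least 1.5-fold lower, among them UBE2C, the ubiquitin-conjugating enzyme of the anaphase promoting complex, from 286 to 155 FPKM. Of the same list 2 were at least 1.5-fold higher, among them BUB1B, a spindle checkpoint kinase, from 9.12 to 15.5 FPKM. Among all genes kept 17.6% were at least 1.5-fold lower and 18% higher. H1-10 (8971, chr3:129314771-129316286), also called H1X, is a linker histone that binds DNA between nucleosomes. It had 74.0 FPKM in control against 46.3 FPKM in FZR1 ko, with a log2 ratio of -0.67. Its antisense gene H1-10-AS1 overlaps it by 16 bases in RefSeq, and had 9.18 FPKM in control against 4.30 FPKM in FZR1 ko. Since the counting is not stated to use strand, reads of that overlap cannot be assigned.

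With MACROH2A1 alone higher, a split by single or several exons could not sort the 9 genes by direction, so the structures are only described. H2AX, H2AJ and H1-10 have a single exon in their main transcript, as replication-dependent histone genes do, and had log2 ratios from -0.67 to -0.44. The other 6 have 4 to 9 exons, and their log2 ratios ran from -0.83 to 0.79. Transcript length moved with the log2 ratio over all genes. The tenth of genes kept with the shortest main transcripts, up to 850 bases, had a median log2 ratio of -0.12, and the tenth with the longest, from 6990 bases, had one of 0.29. All main transcripts of the 9 genes but that of H2AZ2, with 3026 bases, were shorter than the median of 2894 bases. When the median log2 ratio of genes of like length and GC content was subtracted, the median of the 9 genes was -0.42 in place of -0.53. MACROH2A1 stood at 0.94 and H3-3A at -0.72. H2AZ1 stood at -0.50, no longer past 1.5-fold, and H2AZ2 at 0.04, so that 7 genes were lower and 2 higher.

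**Figure D2:**
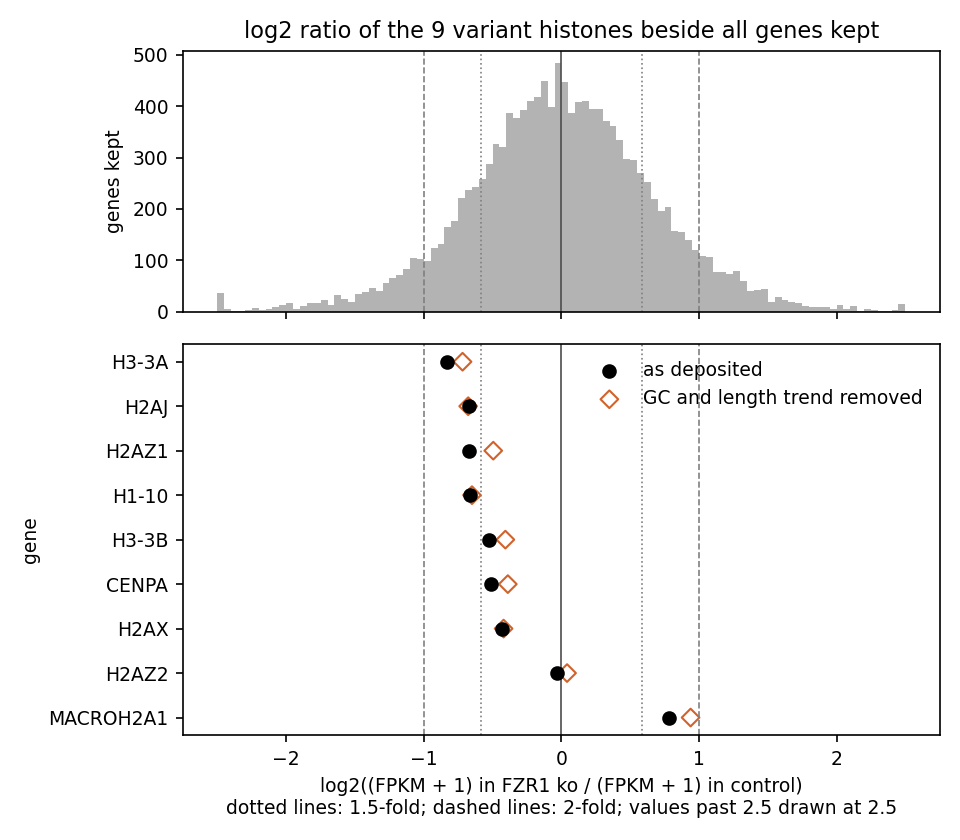
Top, number of genes kept by log2 ratio of FZR1 ko to control (values past 2.5 in either direction drawn at 2.5). Bottom, the log2 ratio of each of the 9 genes as deposited (black circles) and with the trend of GC content and length removed (open diamonds), 1 library per condition. 7 circles lie between -0.83 and -0.44, H2AZ2 lies near 0 and MACROH2A1 at 0.79.

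Variant and replication-dependent histones were then compared within each library, since the make-up of histone mRNA does not depend on the scaling between libraries. Such shares still carry the trend with transcript length. The main transcripts of the 51 replication-dependent genes kept had a median of 486 bases. Their median log2 ratio was -1.47, and -1.25 with the trend of GC content and length removed. The replication-dependent genes are the closest relatives of the 9 genes and supply the bulk of histones during S phase. The sum of the 67 that had a value was 913 FPKM in control against 230.3 FPKM in FZR1 ko, 25.2% of control, whereas the 9 variants together stood at 71.8% of control. The variants made up 63.4% of all histone FPKM in control and 83.2% in FZR1 ko. H3-3A and H3-3B held 86.9% of the FPKM of these 2 genes plus the replication-dependent H3 genes in control and 96.1% in FZR1 ko, a gap of 9.24 percentage points. With H3P6 added to H3-3A these shares were 93.5% and 98.3%, and the gap was 4.78 points. The 5 H2A-type variants held 77.1% of H2A mRNA in control and 93.4% in FZR1 ko, and H1-10 held 48.6% of the H1-10 and replication-dependent H1 mRNA in control and 61.9% in FZR1 ko. The share of MACROH2A1 in all histone FPKM was 3.42% in control and 10.8% in FZR1 ko.

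The most abundant replication-dependent genes, H2BC12, H2AC18 and H2AC19, had 218, 100.5 and 100.5 FPKM in control and 55.1, 12.5 and 12.5 FPKM in FZR1 ko. The values of the latter pair were equal, and whether they share reads was not tested. Replication-dependent mRNA mostly lacks the poly(A) tail. The labels and methods speak of total RNA but do not say whether poly(A) RNA was selected or ribosomal RNA removed. The part of that step in the shares was not tested.

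**Figure D3:**
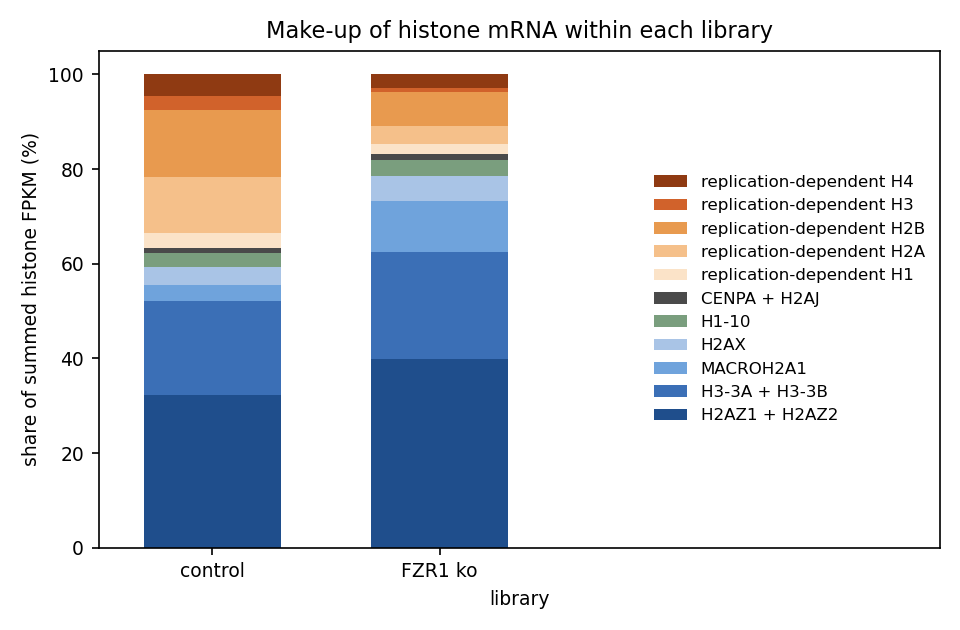
Share (%) of each histone type in the summed FPKM of the 9 variant genes and the 67 replication-dependent genes, within the control and within the FZR1 ko library, 1 library each and no error bars. Blue, green and dark grey blocks are the variants, which reach 63.4% in control and 83.2% in FZR1 ko, and orange and brown blocks are replication-dependent H1, H2A, H2B, H3 and H4.

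The mRNAs of proteins that place or remove the variants did not share one direction. Nor did genes in general, since 17.6% of all genes kept were at least 1.5-fold lower and 18% higher. The counts of each list below stand beside these shares. Of 20 genes for the exchange of H2A.Z, which belong to the SRCAP, p400 and INO80 remodellers or encode the H2A.Z chaperone ANP32E, none was at least 1.5-fold lower and 3 were higher, with a median log2 ratio of 0.14. The highest log2 ratio was that of EP400, the p400 ATPase that places H2A.Z, with 5.44 FPKM in control against 11.8 FPKM in FZR1 ko (0.99), and the lowest log2 ratio that of ZNHIT1, a subunit of the SRCAP complex, from 64.8 to 47.1 FPKM (-0.45).

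The 9 genes that handle H3.3 had a median of -0.05, with 3 at least 1.5-fold lower and 4 higher. This median had no stable sign, at -0.21 over those that reached 1 FPKM in both libraries and 0.04 with the trend of GC content and length removed. ASF1B, a chaperone of H3 and H4 in dividing cells, had 238.7 FPKM in control against 118 FPKM in FZR1 ko, with a log2 ratio of -1.01. CABIN1, a subunit of the HIRA complex that places H3.3, had 2.57 FPKM in control against 6.19 FPKM in FZR1 ko, with a log2 ratio of 1.01. The genes of this list thus lay on both sides while H3-3A and H3-3B were lower.

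Of 9 genes for CENP-A deposition 1 was at least 1.5-fold lower and 1 higher, with a median of -0.04. MIS18A, a subunit of the complex that prepares the centromere for new CENP-A, had 43.8 FPKM in control against 27.8 FPKM in FZR1 ko, and CENPB, which binds centromeric DNA, had 32.8 and 54.9 FPKM. HJURP, the chaperone of CENP-A, was named after its values were seen and had 24.7 FPKM in control against 23.8 FPKM in FZR1 ko.

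Of 14 genes that act on H2A.X or on its phosphorylated form 2 were at least 1.5-fold lower and 5 higher, with a median of 0.23. PPP4C, the catalytic subunit of a phosphatase that removes the H2A.X phosphate, had 118.7 FPKM in control against 66.4 FPKM in FZR1 ko, with a log2 ratio of -0.83. PRKDC, the catalytic subunit of DNA-PK and one of the kinases that add it, had 13.3 FPKM in control against 31.5 FPKM in FZR1 ko, with a log2 ratio of 1.18. The transcripts of this list are long, with a median of 6478 bases, and with the trend of GC content and length removed its median was 0.02.

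Of 17 general histone chaperones 2 were at least 1.5-fold lower and 3 higher, with a median of 0.17. Among all genes kept 17.6% were lower by this measure and 18% higher. The lowest log2 ratio was that of SPTY2D1, a chaperone of H3 and H4 (-1.09, from 22.9 to 10.3 FPKM), and the highest that of CHAF1A, the large subunit of the complex that loads new H3 and H4 at replication forks (0.67, from 23.8 to 38.6 FPKM). A list of 20 S phase genes had a median of -0.05, with 3 genes at least 1.5-fold lower and 2 higher. It ran from CCNE2, which encodes cyclin E2 (77.3 to 24.3 FPKM), to POLA1, a subunit of the DNA polymerase that starts new strands (3.01 to 9.63 FPKM).

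The promoters of the 9 genes, 300 bases each from 250 before to 50 after the start in RefSeq on GRCh38.p14, were searched on both strands for CCAAT (bound by NF-Y), TTTGAA (the cell cycle element CHR), TTTGGCGC, TTTCGCGC and TTTCCCGC (E2F type sites), GGGCGG (Sp1 type) and TATAA. Shown are H2AZ1 and H2AZ2, the pair whose values parted, MACROH2A1, the one gene that was higher, and CENPA, the one gene with an E2F type match. Capitals mark a match to any of these motifs on either strand, and neighbouring matches can overlap.
H2AZ1, chr4:99950226-99950525, minus strand: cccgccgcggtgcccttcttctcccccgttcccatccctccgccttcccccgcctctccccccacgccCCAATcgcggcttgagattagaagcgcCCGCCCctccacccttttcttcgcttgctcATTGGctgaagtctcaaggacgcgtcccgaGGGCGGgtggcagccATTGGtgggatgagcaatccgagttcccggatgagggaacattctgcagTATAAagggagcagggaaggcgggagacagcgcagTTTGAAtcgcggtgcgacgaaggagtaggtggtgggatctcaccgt
H2AZ2, chr7:44848038-44848337, minus strand: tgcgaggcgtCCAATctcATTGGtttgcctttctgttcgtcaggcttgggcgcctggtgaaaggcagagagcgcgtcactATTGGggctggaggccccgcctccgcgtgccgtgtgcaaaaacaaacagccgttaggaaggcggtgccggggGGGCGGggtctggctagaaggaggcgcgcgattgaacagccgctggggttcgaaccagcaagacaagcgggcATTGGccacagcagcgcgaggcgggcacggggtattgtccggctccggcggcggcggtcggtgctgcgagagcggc
MACROH2A1, chr5:135399182-135399481, minus strand: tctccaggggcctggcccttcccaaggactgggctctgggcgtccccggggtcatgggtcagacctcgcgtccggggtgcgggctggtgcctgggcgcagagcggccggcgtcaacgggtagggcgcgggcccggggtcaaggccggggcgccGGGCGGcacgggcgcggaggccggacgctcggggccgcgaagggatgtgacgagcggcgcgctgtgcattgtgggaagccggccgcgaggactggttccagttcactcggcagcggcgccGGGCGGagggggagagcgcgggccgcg
CENPA, chr2:26785806-26786105, plus strand: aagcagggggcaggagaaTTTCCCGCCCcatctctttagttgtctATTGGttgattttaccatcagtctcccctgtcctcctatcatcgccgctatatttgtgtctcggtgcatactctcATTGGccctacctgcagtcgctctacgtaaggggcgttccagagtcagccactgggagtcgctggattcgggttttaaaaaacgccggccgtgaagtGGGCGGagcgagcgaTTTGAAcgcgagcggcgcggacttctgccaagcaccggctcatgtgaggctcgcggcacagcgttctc

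CCAAT was found in 7 of the 9 promoters, and 2 or more times in 6, while 34.6% of all 35116 promoters of the table held it and 10.8% held it 2 or more times. H2AZ1 and H2AJ had 3 copies, H2AX, H2AZ2 and H3-3B had 4, CENPA had 2 and H3-3A had 1. MACROH2A1 and H1-10 had none in this window. Whether copies of a motif go with the log2 ratios was not tested. TTTGAA was found in H2AX, H2AZ1 and CENPA (15.2% of all promoters), and TTTCCCGC in CENPA (1.63%). TTTGGCGC and TTTCGCGC were found in none of the 9, and in 0.652% and 0.515% of all promoters. GGGCGG was found in 6 of the 9 (45.0% of all) and TATAA in 4 (20.4%), those of H2AX, H2AZ1, H3-3B and H1-10. A match of letters is no evidence that a factor binds there.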

How the data were processed

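RNAseq values of a control and a FZR1 ko library, both from cisplatin-treated cells, were used. The authors sequenced on BGISEQ-500, aligned reads to the transcriptome with Bowtie2 and quantified them with RSEM on hg38, and deposited FPKM per Entrez gene ID. The submitters' processing notes also list Trimmomatic 0.36, HISAT2 2.1.0 and Bowtie2 2.2.5. Annotation version, fragment length and the selection of RNA after extraction of total RNA are not given in the sources used here. Of 24663 rows, 1630 had no value. Of the 23033 genes used, 22925 (99.5%) matched a symbol in RefSeq for GRCh38.p14.

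FPKM holds no read number, so depth is unknown. The log2 ratio of FPKM + 1 between FZR1 ko and control was taken for the 13554 genes that reached 1 FPKM in either library. Genes past 1.5-fold and 2-fold were counted. Without replicates no test was possible. The 9 genes and all lists were chosen with earlier results of these data known. Named were the 9 genes, FZR1, markers, other variants that were kept, the highest and lowest log2 ratio of each list and the 3 most abundant replication-dependent histones. MACROH2A2 and H3-5, which were not kept, the copy H3P6, the neighbours DPAGT1 and H1-10-AS1, and HJURP were added later. The value of 1 gene within this rule is not reported here.

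Length, GC content, shared 50-base stretches and the stem-loop come from the main transcripts of GENCODE 44 (hg38), and promoters from RefSeq. The trend with GC content and length was removed as the median of 10 by 10 quantile groups. The 2-fold count and this step were tried on simulated data with larger changes and a trend with length alone. Counts at 1.5-fold, and genes with a mean below 10 FPKM, were not checked in that way. Alternatives were a pseudocount of 0.1 or 5 FPKM, centring, rescaling to equal sums, other filters and removal of that trend. Sequences were read with Biopython 1.88, figures drawn with matplotlib 3.10.9, and the rest computed in Python 3.11.15 with pandas 2.3.3 and numpy 2.4.6.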

Additional observations from a re-analysis of the deposited data

How the results depend on the processing

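Adding H3P6 to H3-3A, and ratios without a pseudocount, were chosen after the data were seen. No paired analysis was possible because neither condition was repeated, and so no replicate could be left out. A value was taken to move when it changed by over 1.5 times, since no spread between replicates exists. Of 49 values of the main results under these alternatives 48 did not move. Many of them could hardly move, so this count is no measure of robustness. All 9 genes reached 1 FPKM in both libraries, so the other filters left their log2 ratios unchanged. The median subtracted in centring was only -0.0048. Counts such as 7 in place of 8 fell within the limit of 1.5 times. The median log2 ratio of replication-dependent histones, -1.47, was -0.84 with a pseudocount of 5 FPKM, which pulls low genes towards 0 by its construction. Removing the trend of GC content and length left 7 of the 9 genes lower in place of 8, 4 past 1.5-fold in place of 5, and a median of -0.42 in place of -0.53. The log2 ratio of H2AZ2 changed sign there, to 0.04, and that of H2AJ was -0.40 with a pseudocount of 5 FPKM. Outside the main results 153 values did not move and 12 did, those of H2AZ2 and H2AJ, 9 medians of lists and the gap in the H3.3 share of H3 FPKM, which was 9.24 percentage points and 4.78 with H3P6 added. The H3.3 list, at -0.05, had a median of -0.21 with at least 1 FPKM in both libraries, -0.26 there without a pseudocount and 0.04 with the trend removed. With the trend removed the CENP-A list had -0.09 in place of -0.04, the H2A.X list 0.02 in place of 0.23, the S phase list -0.0077 in place of -0.05 and the G2 and mitosis list -0.05 in place of -0.08. With a pseudocount of 5 FPKM the CENP-A list had -0.02 and the H2A.X list 0.14. Counts of all genes past 1.5-fold fell from 2387 lower and 2440 higher to 1238 and 1113 with that pseudocount. The share of variants in histone FPKM was higher in FZR1 ko by 19.7 percentage points, by 16.7 with H3P6 added and by 23.9 without the H3.3 genes. The ratio of H3-3A to H3-3B in FZR1 ko was 0.81 of that in control, and 0.96 with H3P6 added. The unknown depth limits the value of H2AJ, the lowest of the 9 genes, and its effect was not compared between genes.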
